A study of Drosophila melanogaster with 10 samples.

Results

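The small heat shock protein genes of Drosophila were examined in S2 cells through 8 genes chosen by symbol, Hsp22, Hsp23, Hsp26, Hsp27, Hsp67Ba, Hsp67Bb, Hsp67Bc and l(2)efl. All 8 had values, in 15 of the 30551 transcript entries and among the 15240 gene symbols of the table. The study asked how polymerization of the Polycomb group protein Polyhomeotic (Ph) affects Polycomb protein clusters, chromatin contacts and gene expression in S2 cells. S2 cells are a cultured line derived from fly embryos. The study also mapped where Ph binds the genome. Its 10 samples form 5 groups of 2 replicates, of which 4 are chromatin immunoprecipitation or input libraries of cells that express PH-WT or the polymerization mutant PH-ML. The remaining group is RNA of S2 cells labelled WT, and only these 2 libraries had values that were analysed here. Per the labels, all groups, the WT cells included, were grown at 27 °C and kept for 3 days with copper sulphate at 0.5 mM, and no library without copper or after heat shock was analysed here. The line is a single cultured line, and the labels name 1 commercial source for it.

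Small heat shock proteins are chaperones that hold unfolding proteins in a soluble state without using ATP, and most carry a conserved alpha-crystallin domain. In flies their genes are induced by heat through the heat shock factor Hsf, and several are also switched on by the steroid hormone ecdysone or during normal development. Hsp22, Hsp23, Hsp26, Hsp27, Hsp67Ba, Hsp67Bb and Hsp67Bc lie side by side in the cluster at cytological region 67B, whereas l(2)efl, a relative of vertebrate alpha-B-crystallin, lies elsewhere in the genome. Hsp67Bb is the odd one out of the cluster, since its product is described as a rhodanese domain protein and not as an alpha-crystallin chaperone.

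Levels were given as RPKM, in which reads are scaled by the length of the transcript and by the size of the library. The steps that whole reads leave in these values put replicate 1 at 37054213 reads and replicate 2 at 9495835, so that replicate 1 was 3.90 times as deep. These sizes are rounded, since they did not come out as whole numbers, and it is not stated whether reads with several alignments were weighted, so the reads given here are those the RPKM steps imply. A gene is described by the median RPKM over its transcript entries, and errors are the SD over the 2 libraries. The study calls the libraries biological replicates, but nothing says that they came from separate cultures, so their spread may be technical. The labels give no batch or date. Of 8 plasmatocyte (blood cell) markers, 7 had values and 4 were at 5 RPKM or more, led by the receptor genes Pvr at 71.1 RPKM and crq at 30.5 RPKM, while Hml was at 1.18 RPKM, Pxn at 0.398 RPKM and He at 0.0401 and 0 RPKM. Among the neuron, muscle, germline, fat body and crystal cell markers with values, only aub, at 5.05 RPKM, reached 5 RPKM.

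The small heat shock protein genes spanned the range from the most abundant messages of the cell to the limit of detection. The classic heat-inducible genes Hsp26, Hsp23, Hsp22 and Hsp27 had means above 100 RPKM, Hsp67Bc had 27.6 RPKM, and Hsp67Bb, Hsp67Ba and l(2)efl were below 10 RPKM. Of the 8 genes, 7 had a mean of at least 1 RPKM and 6 a mean of at least 5 RPKM, against 7548 and 4493 of all 15240 genes. Their median level was 119.7 RPKM, and that of all genes was 0.919 RPKM.

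Hsp26, a cytosolic chaperone, had 840.1 RPKM in replicate 1 and reached 1299 RPKM in replicate 2, a mean of 1069.5 ± 325 RPKM (SD, n = 2), and ranked 22 among all genes. Hsp23, also cytosolic, had 708 and 1167 RPKM, a mean of 937 ± 325 RPKM, at rank 26. Hsp22, which acts in mitochondria, had 378 and 643 RPKM, a mean of 510.5 ± 187 RPKM, at rank 71. These values show that each of the leading genes was higher in replicate 2, so that their ranges were wide. Hsp27, whose protein is found mainly in the nucleus, had 148 and 276 RPKM, a mean of 212 ± 90.4 RPKM, at rank 150.

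Hsp67Bc, which works with the co-chaperone starvin (stv) in autophagy, had 24.0 and 31.2 RPKM, a mean of 27.6 ± 5.09 RPKM (SD, n = 2), at rank 828. Hsp67Bb had 8.71 and 7.81 RPKM, a mean of 8.26 ± 0.633 RPKM, at rank 2975. Hsp67Ba, a little-studied member of the cluster, had 2.52 and 1.88 RPKM, a mean of 2.20 ± 0.452 RPKM. Both Hsp67Bb and Hsp67Ba were thus slightly lower in replicate 2, opposite to their abundant neighbours. l(2)efl, the one gene outside the cluster, was detected only in replicate 1, at 0.838 RPKM, and the table gives 0 for replicate 2.

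**Figure D1:**
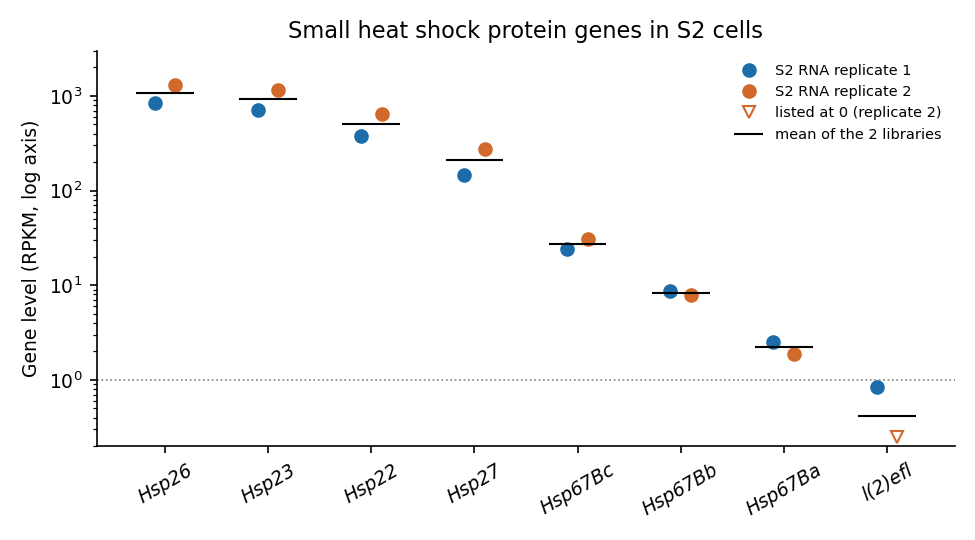
Level of each small heat shock protein gene in RPKM on a log axis, with a point for each of the 2 S2 RNA libraries and a bar for their mean; the open triangle marks l(2)efl, which was listed at 0 in replicate 2, and the dotted line marks 1 RPKM. The genes fall from Hsp26 at a mean of 1069.5 RPKM to l(2)efl at 0.838 and 0 RPKM.

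The order of the levels was the same in both libraries for all 8 genes. Neighbours in that order were taken to differ beyond their spread where their ranges did not overlap and the difference of the means on the log2(RPKM + 1) scale exceeded the sum of their SDs. By this measure Hsp26 and Hsp23 were not separated, with a mean log2 ratio of 0.20 ± 0.07 (SD, n = 2) against summed SDs of 0.95. Hsp23 and Hsp22 were not separated by it either, with a log2 ratio of 0.88 ± 0.03 against 1.05. The summed SDs hold the rise that these genes share in replicate 2, which a ratio within a library leaves out. Within replicates 1 and 2 the log2 ratio was 0.90 and 0.86 for Hsp23 to Hsp22, and 0.25 and 0.15 for Hsp26 to Hsp23. The measure thus does not show that the genes of either pair have equal levels. The other 5 steps down the order exceeded the spread. The widest on this scale was from Hsp27 to Hsp67Bc, with a log2 ratio of 2.58 in replicate 1 and 3.11 in replicate 2. The size of the last step, from Hsp67Ba to l(2)efl, depends on the pseudocount, since l(2)efl was at 0 in replicate 2. Its place among the steps is therefore not settled. These steps carry no p-value, since 2 libraries of a single group allow no test across samples.

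The cluster at 67B allowed neighbouring genes to be compared with each other within each library, where a difference in the size or scaling of the library largely cancels. The 7 genes form 21 pairs, and all 21 had the same direction in both libraries, which follows from the shared order given above. The extremes were Hsp26 and Hsp67Ba, which stand next to each other in the reference order. The level of Hsp26 was 333 times that of Hsp67Ba in replicate 1 and 689.6 times in replicate 2, and on the log2(RPKM + 1) scale the mean ratio was 8.36 ± 0.65 (SD, n = 2).

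The 4 abundant genes kept close proportions. Hsp26 stood at 1.19 and 1.11 times Hsp23, at 2.22 and 2.02 times Hsp22, and at 5.68 and 4.71 times Hsp27, in replicates 1 and 2. The ratio to Hsp22 is smaller when the longer entry of Hsp22, described below, is left out. The SDs of the log2 ratios of their 6 pairs ran from 0.03 to 0.19. In the 12 pairs of an abundant gene with Hsp67Bc, Hsp67Bb or Hsp67Ba the SDs ran from 0.19 to 0.84. The ratio was larger in replicate 2 in all 12, which follows from the differences of the single genes and is not 12 separate results. The abundant genes thus differed between the libraries by similar factors, and the low genes of the cluster did not follow them to the same degree. Whether the SDs of the pairs differ was not tested, since each rests on 2 libraries and the pairs share genes.

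In the reference gene order the abundant genes stood among low ones, and only Hsp23 and Hsp27 were direct neighbours. The order runs Hsp67Bc, Hsp67Bb, Hsp22, CG4461, Hsp26, Hsp67Ba, CR43481, Hsp23 and Hsp27, taken from the RefSeq annotation of Release 6, which is a later release than the one the reads were aligned to. CG4461, another gene with an alpha-crystallin domain, lies between Hsp22 and Hsp26 and had 17.6 RPKM in replicate 1 and 9.39 RPKM in replicate 2. CR43481, annotated as antisense, overlaps Hsp67Ba in that annotation and had 2.22 and 1.45 RPKM. Its level was close to the 2.52 and 1.88 RPKM of Hsp67Ba, and since it is not stated whether counting used the strand, the reads of these 2 genes cannot be told apart where they overlap. Within 3 genes on either side, CG4447, CG4452, Fdxh and CG4080 had means from 2.28 to 9.89 RPKM, and the pseudogenes CR43483 and CR43482 were not analysed here. The 6 genes of this stretch that are not on the list thus had means between 1.83 and 13.5 RPKM, all below Hsp67Bc and far below the 4 abundant genes.

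**Figure D2:**
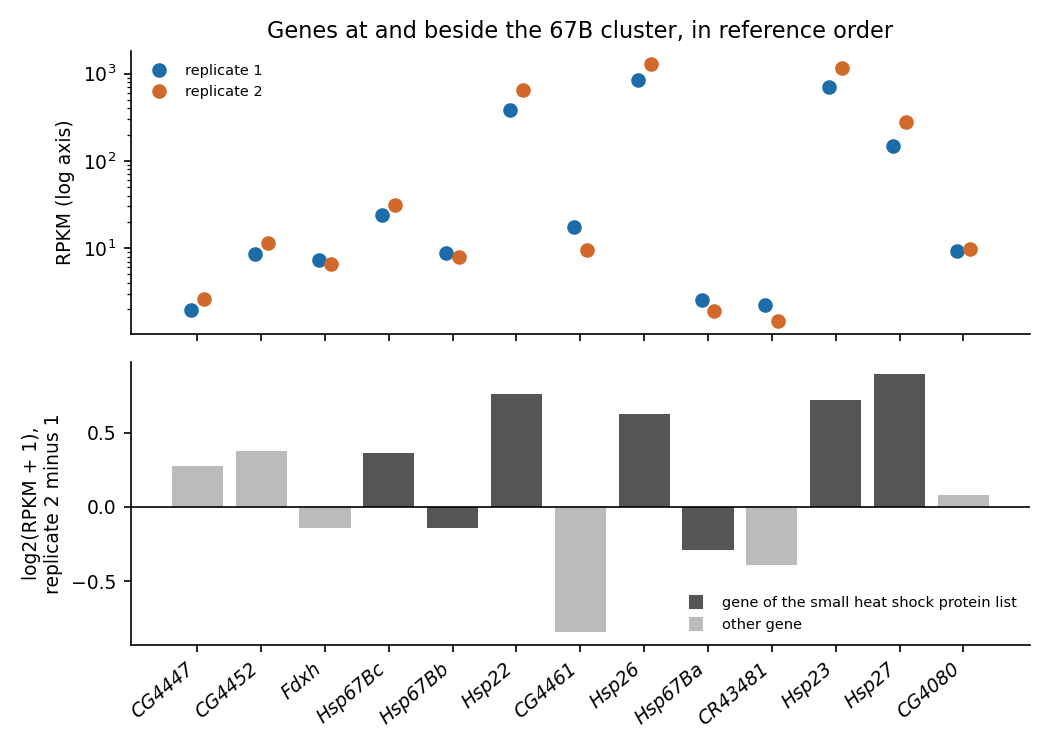
Genes at and beside the 67B cluster in the order of the reference annotation; the upper panel gives RPKM in each library on a log axis and the lower panel the difference of log2(RPKM + 1), replicate 2 minus replicate 1, with dark bars for the listed small heat shock protein genes. Hsp22, Hsp26, Hsp23 and Hsp27 stand above 100 RPKM and rise by 0.63 to 0.90 in replicate 2, while CG4461, between Hsp22 and Hsp26, falls by 0.84.

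The value of Hsp67Bb depended on which of its transcripts was read. Hsp67Bb had 4 transcript entries. The shorter entries had 8.42, 7.68 and 8.996 RPKM in replicate 1 and 7.71, 7.03 and 7.92 RPKM in replicate 2. The fourth, 1900 bases long by the recovered lengths, had 258 and 436 RPKM, the very values listed for a 1900-base entry of Hsp22. The table thus carries 1 long transcript under both symbols, and the median over 4 entries placed Hsp67Bb with its short transcripts.

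The reads behind the entries show where the signal of the long transcript lies. The 968-base entry of Hsp22 alone had 17887 reads in replicate 1 and 7810 in replicate 2. The long entry had 18143 and 7863 reads, or 256 and 53 more, although it is 932 bases longer. The longest entry of Hsp67Bb alone, at 794 bases, had 226 and 53 reads. Of the reads on the shared transcript, 98.6% and 99.3% were therefore matched in number by the short Hsp22 entry, and the remainder was close to the reads of Hsp67Bb on its own. Read by its own entry, Hsp22 had 499 and 850 RPKM, a mean of 674 ± 248 RPKM (SD, n = 2), and Hsp67Bb without the shared entry had 8.42 and 7.71 RPKM, a mean of 8.07 ± 0.506 RPKM. With this choice the mean of Hsp22 rose from 510.5 to 674 RPKM. Its SD holds the rise in replicate 2 that the abundant genes share, so it does not measure this change. Within the libraries the mean log2 ratio of Hsp26 to Hsp22 was 0.68 in place of 1.08 ± 0.10 (SD, n = 2). The level of Hsp67Bb would be 347 RPKM if its highest entry stood for it.

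**Figure D3:**
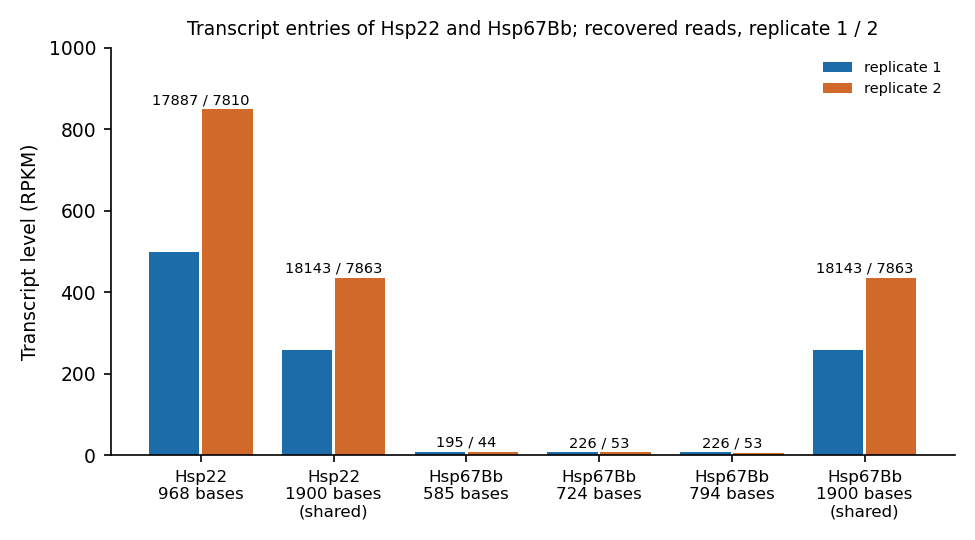
RPKM of each transcript entry of Hsp22 and Hsp67Bb in replicates 1 and 2, with the length of the entry under the bars and the recovered reads of both replicates above them. The 1900-base entry is listed under both symbols with 18143 and 7863 reads, whereas the entries of Hsp67Bb alone have at most 226 and 53 reads.

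Other genes with several entries held nearly the same reads on each. Both entries of Hsp23, of 849 and 884 bases, had 22712 and 22719 reads in replicate 1 and 9598 and 9600 in replicate 2. All 3 entries of l(2)efl, of 738 to 800 bases, had 23 reads in replicate 1 and 0 in replicate 2. Reads of a gene were thus not divided among its isoforms in these entries, and values of isoforms of 1 gene are not independent. Of the remaining genes, the single entry of Hsp26 had 29821 and 11817 reads, that of Hsp27 had 6681 and 3194, that of Hsp67Bc had 876 and 292, and that of Hsp67Ba had 162 and 31.

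Counted in reads, the small heat shock protein cluster was a measurable part of each library. Hsp22, Hsp23, Hsp26 and Hsp27 together, each by 1 entry of its own, held 0.208% of the reads of replicate 1 (95% Wilson interval 0.207% to 0.210%) and 0.341% of those of replicate 2 (0.338% to 0.345%). They made up 98.4% and 98.9% of the reads of the 7 genes at 67B. Hsp26 alone took 38.1% and 36.0% of these reads, Hsp23 29.0% and 29.3%, Hsp22 22.8% and 23.8%, and Hsp27 8.52% and 9.74%. These intervals hold for counting error alone, because the reads carry no molecular identifiers and need not be independent molecules, and shares of reads favour longer transcripts.

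The 4 abundant members were all higher in replicate 2. The fold in RPKM of replicate 2 over replicate 1 was 1.87 for Hsp27, 1.70 for Hsp22, 1.65 for Hsp23 and 1.55 for Hsp26. On the log2(RPKM + 1) scale, with a pseudocount of 1 that understates the differences of low genes, these were 0.90, 0.76, 0.72 and 0.63. Hsp67Bc was higher in replicate 2 by 0.37, while Hsp67Bb had a difference of -0.14 and Hsp67Ba of -0.29. l(2)efl, with 0 RPKM in replicate 2, had a difference of -0.88. The size of this value is set by the pseudocount, since it was -3.23 with a pseudocount of 0.1. None (0) of the 6 genes whose mean reached 5 RPKM was more than 2-fold apart, against 0.512% of all 4493 such genes. At 1.5-fold, a threshold chosen after the values were seen, 4 of the 6 were higher in replicate 2, against 2.14% of the 4493. A difference between single libraries has no replicate check.

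High level and higher values in replicate 2 went together across the table. There were 175 protein-coding genes whose mean reached 100 RPKM, of which 155 had the higher value in replicate 2, their median log2 difference was 0.41, and 21.7% were more than 1.5-fold higher. Of these 175 genes, 30 had a difference of at least 0.63, the lowest among Hsp22, Hsp23, Hsp26 and Hsp27. These members are thus among the 30 by construction. The other genes in this group of 30 included 18 ribosomal protein genes and 6 inducible Hsp70 genes. Some of these Hsp70 genes are near-identical copies and not separate observations. The median difference was 0.50 over the 81 ribosomal protein genes at this level and 0.17 over the other 94 genes, which include the members. Replicate 2 was also the shallower library. The part of depth or of library composition in the rise of the small heat shock protein genes was not tested.

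**Figure D4:**
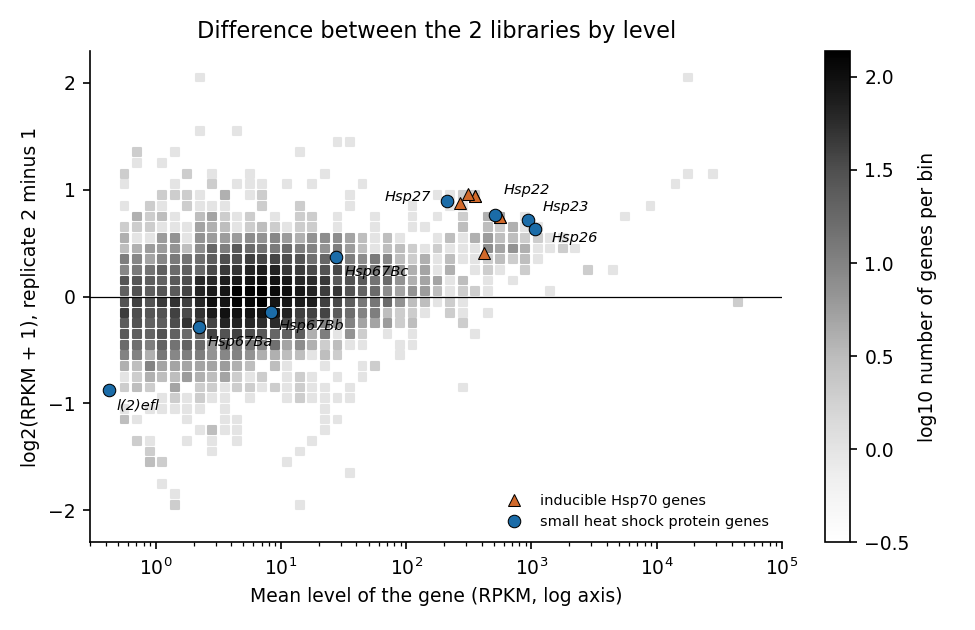
Difference of log2(RPKM + 1), replicate 2 minus replicate 1, against the mean RPKM of the gene on a log axis; grey squares are bins of all genes whose mean is 0.5 RPKM or more, shaded by the number of genes, circles are the small heat shock protein genes and triangles the inducible Hsp70 genes. Hsp27, Hsp22, Hsp23 and Hsp26 lie at 0.63 to 0.90 beside the Hsp70 genes, and Hsp67Bb, Hsp67Ba and l(2)efl lie below 0.

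The recovered reads were put to an exact binomial test (two-sided, Benjamini-Hochberg adjustment over all genes tested), which asked whether the libraries differed by more than counting error. It was run on the entry of each gene with the most reads and called 14% of 9883 genes, 8.77% as higher and 5.21% as lower in replicate 2. Hsp23, Hsp26 and Hsp22 had adjusted p-values of 1e-300 or less, and Hsp27 had 2.02e-167. Hsp26, for example, had 11817 reads in replicate 2 where 8494 would follow from the depths. Of the 175 coding genes that reached 100 RPKM, 79.4% were called as higher in replicate 2, so at this depth the call itself says little about these members. Hsp67Bc, with 292 reads where 238 would follow, had an adjusted p of 0.00187 in the exact test.

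The low members were near the limits of this test. Hsp67Ba had 31 reads in replicate 2 where 39.4 would follow, and the exact test gave an adjusted p of 0.414. Hsp67Bb was called as higher through the entry it shares with Hsp22, at an adjusted p of 1e-300 or less in the exact test. Without entries that carry the same values under another symbol, it had 53 reads where 56.9 would follow and an adjusted p of 0.839 in the exact test. Beside the 8.77% of all genes called as higher in replicate 2, the exact test thus called 6 of the 8 members with the shared entry and 5 without it. l(2)efl had 23 reads in replicate 1 and 0 in replicate 2, where 4.69 would follow, and its adjusted p in the exact test was 0.0565 (unadjusted p = 0.00821). A count of 0 in replicate 2 allows up to 3 reads, or 0.426 RPKM on the 741-base entry of l(2)efl. Its 0.838 RPKM in replicate 1 was 1.96 times this limit. That ratio leaves out the counting error of the 23 reads, so it is not a lower limit of the fold. Such a call concerns the libraries themselves, not a condition.

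The other alpha-crystallin domain genes also included expressed and nearly silent ones, with 2 of 4 at a mean of at least 1 RPKM, against 7 of the 8 members. CG14207 had 27.4 and 28.4 RPKM, a mean of 27.9 ± 0.707 RPKM (SD, n = 2), close to the level of Hsp67Bc. CG4461 had a mean of 13.5 ± 5.84 RPKM, with a log2 difference of -0.84. It was called as lower in replicate 2, with 77 reads where 131 would follow and an adjusted p of 7.10e-07 in the exact test. CG7409 and CG13133 were at 0.0710 and 0.0457 RPKM in replicate 1, and the table gives 0 for both in replicate 2. Only 2 of the 4 genes had enough reads for the test, and CG4461 was the 1 called, beside 5.21% of all genes called as lower. Their median log2 difference was -0.08, against 0.50 for the 8 small heat shock protein genes and -0.01 for all genes. That median lies between CG7409 at -0.10 and CG13133 at -0.06, whose differences are held near 0 by the pseudocount. The 2 expressed genes, CG4461 and CG14207, were at -0.84 and 0.05, so the median does not describe them.

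The inducible Hsp70 genes, whose products refold proteins with ATP, share the heat shock response with the small heat shock protein genes. All 7 had reads, with means from 271 RPKM for Hsp70Ba to 558 RPKM for Hsp70Ab. Each of the 7 was higher in replicate 2 and called so in the exact test. The test called 79.4% of the coding genes that reached 100 RPKM as higher, so these calls are near the share at that level. The median log2 difference was 0.88, with the smallest, 0.41, for Hsp68. Summed over these genes, the level was 2083 RPKM in the first replicate and 3578 RPKM in the second, beside 2110 and 3425 RPKM for the 8 small heat shock protein genes. The copies of Hsp70 are nearly identical, and how reads that fit several copies were counted is not stated. Hsp70Bb and Hsp70Bbb had equal values. Hsp70Aa and Hsp70Ab had 36505 and 36504 reads in replicate 1, and 15782 each in replicate 2. The copies are thus not separate observations, and the sum over the 7 genes may count the same reads more than once.

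The constitutive chaperones, which cells use without stress, had differences on both sides of 0. Of 10 such genes, 7 were higher in replicate 2, 6 were called as higher and none (0) as lower in the exact test (8.77% and 5.21% of all genes), and the median log2 difference was 0.16. Hsp83, the fly Hsp90, had the highest level at 993 ± 169 RPKM (SD, n = 2), with a difference of 0.35, and its mean lay between those of Hsp26 and Hsp23. Within the libraries it exceeded Hsp26 in replicate 1, at 873 RPKM, and was below Hsp23 in replicate 2, at 1112 RPKM. Hsc70-4, the main constitutive Hsp70, was at 530 ± 64.9 RPKM, with a difference of 0.25. This was close to Hsp22 by the median over its entries, but below the 674 RPKM of Hsp22 by its own entry. Hsc70-1 was lowest, at 0.149 RPKM in replicate 1 and 0 in replicate 2. At similar median levels, the log2 differences of Hsp23 and Hsp22 were thus larger than those of Hsp83 and Hsc70-4. The contrast holds for these chaperones and not for all genes at such levels. The 81 ribosomal protein genes that reached 100 RPKM had a median of 0.50, and RpS26, at 418 and 715 RPKM, had 0.77. Differences between genes were not tested, since each gene has 1 difference.

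**Figure D5:**
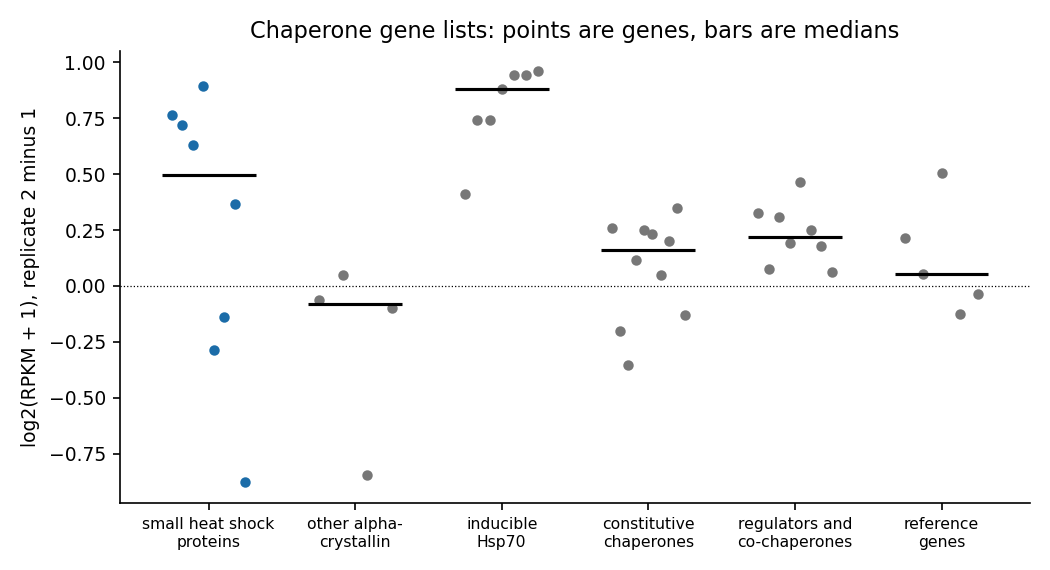
Difference of log2(RPKM + 1), replicate 2 minus replicate 1, for the genes of 6 lists; points are genes, bars are the medians and the dotted line is 0. The inducible Hsp70 genes have a median of 0.88 and the small heat shock protein genes of 0.50, with members on both sides of 0, whereas the constitutive chaperones have a median of 0.16.

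Regulators and partners of the small heat shock proteins all had means above 5 RPKM. Hsf, the transcription factor of the heat shock response, had 28.1 and 33.6 RPKM, and Trl, the GAGA factor that keeps heat shock promoters open, had 13.3 and 15.2 RPKM. DnaJ-1, an Hsp40 co-chaperone, was the highest of the 8 genes of this list at 361 ± 13.1 RPKM (SD, n = 2), and HIP the lowest at 7.05 ± 0.757 RPKM. stv, the partner of Hsp67Bc, had 26.3 and 27.4 RPKM, close to the level of Hsp67Bc. All 8 genes were higher in replicate 2, by a median log2 difference of 0.22, and 6 were called so in the exact test, against 8.77% of all genes.

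Genes of the ecdysone and metal responses are given for comparison. The ecdysone receptor genes EcR and usp had 5.75 and 6.38 RPKM in replicate 1 and 6.69 and 9.22 RPKM in replicate 2. Of the 8 ecdysone genes, 7 had enough reads for the exact test, which called 4 as higher in replicate 2 (8.77% of all genes) and 1, Eip71CD, as lower (5.21% of all genes), and their median log2 difference was 0.08. Hr46 was the lowest, at 0.0194 RPKM in replicate 1 and 0 in replicate 2. The metallothionein genes, which respond to copper, had a median log2 difference of -0.64, that of MtnE at 11.0 and 6.70 RPKM. Low genes such as MtnB, with 25 and 2 reads, take part in it. The exact test called 1 of 4 tested as lower, against 5.21% of all genes. This was MtnD, with 18 reads in replicate 2 where 33.7 would follow and an adjusted p of 0.0174 in the exact test. MtnA, the most abundant metallothionein gene, had 1545 and 1568 RPKM, a difference of 0.02. It thus exceeded Hsp26 in both libraries without being higher in replicate 2 by a comparable factor. MtnC was the lowest, with 0.201 and 0 RPKM. The 5 reference genes ran from Tbp, at 6.29 RPKM, to Act5C, at 494 RPKM, and had a median log2 difference of 0.05. Of these, 2 were called as higher in the exact test, against 8.77% of all genes and 79.4% of coding genes that reached 100 RPKM.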

How the data were processed

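Total RNA of S2 cells was depleted of ribosomal RNA and sequenced as 50-base single-end reads, which the authors aligned with TopHat to Drosophila release 5 (the submitters' processing notes name TopHat2 2.4, BWA 0.5.9-r16 and dm3). The deposited values are RPKM per RefSeq transcript, with the replicates apart, and the program that made them, its use of strand and its treatment of multiply aligned reads are not given in the sources used here. Values of the remaining 8 samples were not analysed here.

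Whole reads were recovered from the RPKM steps for 99.9% of 23661 entries above 0 in both libraries (relative tolerance 2e-09, smallest length that gave whole reads in both). Recovered reads and lengths are minimum values, and the library sizes, which were not whole numbers, are rounded. Replicate 1 had 37054213 reads and replicate 2 had 9495835, so that 3 reads on 1 kb are 0.0810 and 0.316 RPKM. Genes were represented by the median over entries, differences taken on log2(RPKM + 1), and the exact binomial test run on genes with at least 10 reads and adjusted by Benjamini-Hochberg, with adjusted p-values below 1e-300 written as such. It was tested on simulated data. The members, lists and rules were chosen with earlier results of these data known. Named genes are the members, the list genes (the extremes, those at 0 and those set beside a member) and the genes within 3 of the 67B members in the reference order. Other list genes given with values, such as EcR, usp and MtnB, were picked after their values were seen. With 2 libraries of 1 condition no likeness of patterns was measured. RefSeq (Release 6 plus ISO1 MT) matched 14 of the 15 member entries and gave order only. A planned comparison of protein and promoter sequences was not run, and no sequences are shown. Alternatives covered the pseudocount, filters, scaling, the choice of entry and each replicate. Python 3.11.15, numpy 2.4.6, pandas 2.3.3, scipy 1.17.1 and matplotlib 3.10.9 were used.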

Additional observations from a re-analysis of the deposited data

How the results depend on the processing

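No paired analysis was possible because both libraries with values belong to 1 group. Leaving out 1 replicate gave levels from 840.1 to 1299 RPKM for Hsp26, from 708 to 1167 RPKM for Hsp23, from 378 to 643 RPKM for Hsp22, from 148 to 276 RPKM for Hsp27, from 24.0 to 31.2 RPKM for Hsp67Bc, from 7.81 to 8.71 RPKM for Hsp67Bb, from 1.88 to 2.52 RPKM for Hsp67Ba and from 0 to 0.838 RPKM for l(2)efl. The order of the 8 genes held without either replicate. With the highest entry of each gene, which takes the transcript shared with Hsp22, Hsp67Bb was at 347 RPKM, the log2 ratio of Hsp26 to Hsp67Bb was 1.64 in place of 6.82, and its log2 difference between replicates was 0.76 in place of -0.14. The ratio of Hsp26 to Hsp22 was 0.68 in place of 1.08 with the highest entry and also without shared entries. Without shared entries the adjusted p of the reads of Hsp67Bb was 0.839, with the direction reversed. The 23 genes more than 2-fold apart became 59 at a mean of at least 1 RPKM, 79 with no filter and 146 at 1.5-fold, which also gave 4 members in place of 0. Among protein-coding genes whose mean reached 100 RPKM, 0 were past 2-fold. The 1.5-fold, 100 RPKM and shared-entry settings were chosen after seeing the data. Equal medians, which moved log2 values by 0.02, and a pseudocount of 0.1 changed no direction of a member. At this depth l(2)efl in replicate 2 could not be told from 0.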
